A study of Homo sapiens with 4 samples.

Results

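FOXK2 peaks assigned to splicing factor and hnRNP genes were examined in OVCAR5 cells, an established human ovarian cancer line that the labels describe as high grade serous. Peaks were taken where the deposited annotation named an SRSF gene with a number, any gene whose symbol starts with HNRNP, or a numbered SF3A or SF3B gene. The rule found 28 of 12471 peaks in replicate 1 and 55 of 27281 peaks in replicate 2, together 83 of 39752. The peaks carried 19 gene names in replicate 1 and 32 in replicate 2, of which 18 were in both lists and 33 in either. Among these names 31 were protein-coding genes, out of 48 that match the rule in the reference annotation, and the other 2 were the pseudogenes HNRNPA1P10 and HNRNPKP3.

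The study mapped binding of the transcription factor FOXK2 by ChIP-seq with an antibody against FOXK2, in 2 biological replicates of a single condition, with no treatment or genetic change named in the labels and all cells grown in the same medium. Input chromatin was sequenced beside each replicate and was not analysed here, so no peak was set against input. Each list was called separately and gives every peak a HOMER score, which follows the number of sequenced tags in the peak after scaling to the library, and the nearest transcription start site (TSS). Because the score scale belongs to its own library, scores were compared as percentiles within their list, where 100 is the strongest peak.

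Total read numbers were not in the lists. Scores rose in fixed steps of 0.189 in replicate 1 and 0.149 in replicate 2, so if a step stands for 1 tag, as under the default scaling of HOMER, the weakest splicing-gene peak rested on 19 tags in replicate 1 and 25 tags in replicate 2. The median splicing-gene peak then rested on 37 and 60 tags, and the strongest on 106 and 298. There was no second condition, so no difference between conditions could be tested. The cell type could not be checked against marker genes, because peaks do not measure expression. No expression data were used here, so a peak says where FOXK2 was bound and not whether the gene responded.

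Pre-mRNA splicing depends on RNA-binding proteins that tell the spliceosome which sequences to join. SR proteins bind exon sequences and generally favour inclusion of the exon, whereas hnRNP proteins coat nascent transcripts and often repress splice sites, so the balance of the groups shapes alternative splicing. The SF3A and SF3B complexes are parts of the U2 small nuclear ribonucleoprotein (snRNP), which recognises the branch point in front of the exon that follows an intron. Many SR and hnRNP genes limit their own protein level through alternative exons that send the transcript to decay. FOXK2 is a forkhead factor, and forkhead factors bind DNA around a TGTTTAC-like core.

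The exact forkhead heptamer TGTTTAC lay in 4 sites bound in both replicates, and these are shown because no promoter peak of the group held it. The heptamer is in capitals with 20 bases to each side, 5′ to 3′ on the strand that reads TGTTTAC, in hg38. The HNRNPA1P10 site is chr19:11657417-11657463 on the plus strand and the HNRNPD site is chr4:82272122-82272168 on the minus strand. The HNRNPM site is chr19:8459978-8460024 on the plus strand and the SRSF5 site is chr14:69756003-69756049 on the plus strand.
HNRNPA1P10: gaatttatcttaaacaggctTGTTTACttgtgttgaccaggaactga
HNRNPD: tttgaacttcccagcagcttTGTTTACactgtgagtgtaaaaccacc
HNRNPM: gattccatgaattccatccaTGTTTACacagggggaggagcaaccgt
SRSF5: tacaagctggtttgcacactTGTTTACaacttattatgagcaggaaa
The deposited annotation places the HNRNPM site in an intron of its gene and the other sites in intergenic sequence. By the reference annotation the SRSF5 site lies within a longer SRSF5 gene and the HNRNPA1P10 site within another gene that has no symbol there.

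Sequences from peaks at gene starts are shown for contrast. Each is the longest stretch outside exons of protein-coding genes within the sequence shared by the peaks of both replicates. They are given 5′ to 3′ on the minus strand of hg38, the strand of all 4 genes. Capitals mark the ETS-type heptamer CCGGAAG, here read as its reverse complement CTTCCGG, and the octamer TGACGTCA, known as the cAMP response element (CRE). The SF3B6 stretch is chr2:24076374-24076458, the SRSF1 stretch chr17:58007347-58007452, the SF3A3 stretch chr1:37990076-37990201 and the HNRNPU stretch chr1:244863107-244863276.
SF3B6: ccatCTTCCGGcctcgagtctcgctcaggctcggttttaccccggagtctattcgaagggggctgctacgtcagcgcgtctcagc
SRSF1: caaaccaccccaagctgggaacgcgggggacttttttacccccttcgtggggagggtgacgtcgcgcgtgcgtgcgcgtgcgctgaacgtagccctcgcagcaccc
SF3A3: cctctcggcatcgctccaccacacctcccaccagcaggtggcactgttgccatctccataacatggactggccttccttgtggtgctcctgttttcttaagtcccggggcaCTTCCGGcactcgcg
HNRNPU: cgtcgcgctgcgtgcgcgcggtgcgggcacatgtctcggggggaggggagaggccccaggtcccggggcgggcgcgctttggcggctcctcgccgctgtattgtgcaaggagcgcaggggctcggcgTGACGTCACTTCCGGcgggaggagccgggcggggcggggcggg
In the HNRNPU stretch the CRE and the ETS-type heptamer are directly adjacent, and the SRSF1 stretch holds neither. The SF3A3 stretch shows 1 of the 2 CCGGAAG matches of its peak, and the other lies in the part left out.

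Across the 48 protein-coding genes, 17 were assigned a peak in both replicates (35.4%, Wilson 95% interval 23.4% to 49.6%), 1 in replicate 1 alone, 13 in replicate 2 alone and 17 in neither. Of all 20007 protein-coding genes of the annotation, 28% were assigned a peak in both, a share inside that interval. Wilson intervals here cover counting error only, and several peaks can belong to the same gene. By group, 4 of 9 SF3A and SF3B genes (44.4%, 18.9% to 73.3%), 6 of 12 SR genes (50%, 25.4% to 74.6%) and 7 of 27 hnRNP genes (25.9%, 13.2% to 44.7%) had a peak in both replicates, with intervals that overlap. For promoter peaks, which the annotation places around a TSS, the counts were 4 of 9 SF3 genes (44.4%, 18.9% to 73.3%), 4 of 27 hnRNP genes (14.8%, 5.92% to 32.5%) and 1 of 12 SR genes (8.33%, 1.49% to 35.4%), and these intervals overlap too. In all, 9 of 48 genes had a promoter peak in both (18.8%, 10.2% to 31.9%), with 9.08% of all protein-coding genes as the background. All 4 SF3 genes with peaks in both lists had their overlapping peaks at the promoter, while the overlapping peaks of 5 of the 6 SR genes were elsewhere, though SRSF3, SRSF5 and SRSF7 also had a promoter peak in 1 list.

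**Figure D1:**
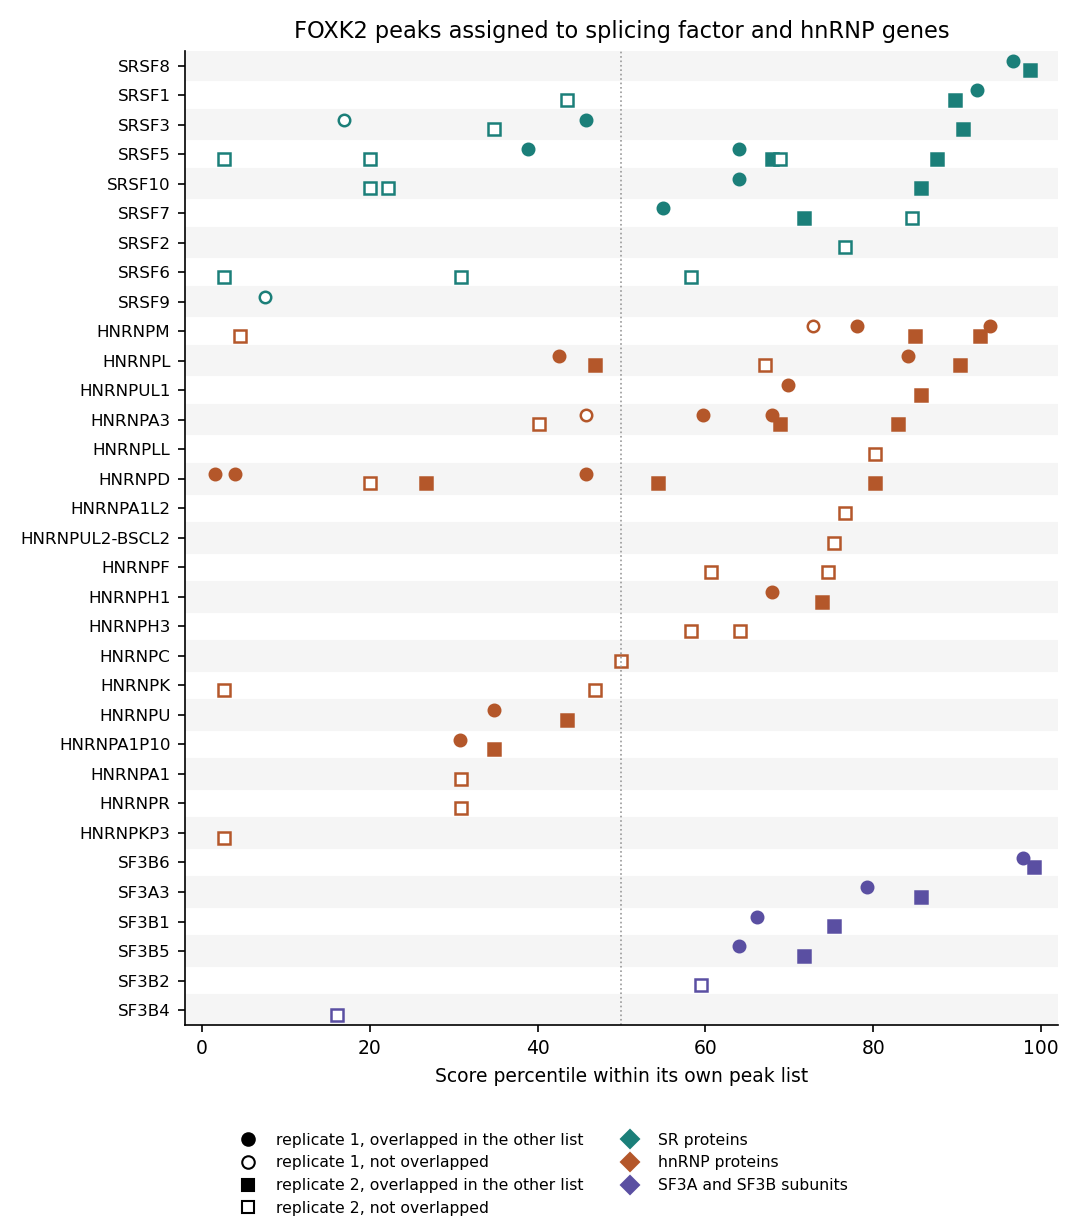
Score percentile of each FOXK2 peak (x axis, within its own list, 100 strongest) by assigned gene (y axis), with circles for replicate 1, squares for replicate 2, and filled symbols for peaks overlapped in the other list. SF3B6 and SRSF8 stand at the right in both replicates, and most open symbols are squares because 31 of the 35 peaks without a partner were in replicate 2.

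Among SF3 genes the strongest site was SF3B6, which encodes the small SF3b subunit that contacts the branch point region. Its promoter peak scored 20 in replicate 1 (rank 273 of 12471, percentile 97.8) and 44.3 in replicate 2 (rank 205 of 27281, percentile 99.2). The peak centres were 91 and 103 bp downstream of the SF3B6 TSS, on chr2:24076248-24076458 and chr2:24076213-24076469. This was the strongest peak of the SR, hnRNP and SF3 genes in each replicate. Its start region is shared with FAM228B, which is transcribed the other way, so the peak cannot be given to either gene by position.

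SF3A3, a subunit of the SF3a complex, carried a promoter peak of score 8.87 in replicate 1 (percentile 79.3) and 14.0 in replicate 2 (percentile 85.7). The centres were 14 and 15 bp from the TSS and 1 bp from each other, on chr1:37989991-37990201 in replicate 1. SF3B1, the large SF3b subunit that clamps the branch point and is a known target of splicing-modulating compounds, had promoter peaks of score 7.17 (percentile 66.1) and 10.9 (percentile 75.3). SF3B5, another small SF3b subunit, had 6.98 (percentile 64.0) and 10.1 (percentile 71.7). These 3 promoter sites were above their list medians in both replicates but well below SF3B6. SF3B2 had a promoter peak in replicate 2 alone (percentile 59.5), and SF3B4 a weak peak there at percentile 16.1, 465 bp from its assigned TSS and 16 bp from a start of the reference annotation.

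SF3A1, SF3A2 and SF3B3 were assigned no peak in either list. Near the SF3A2 start, however, a replicate 1 peak lay 546 bp upstream and was assigned to PLEKHJ1 (percentile 21.9), and a replicate 2 peak lay 3574 bp downstream and was assigned to AMH (percentile 2.7). These were separate places, and neither overlapped a peak of the other list.

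Among SR genes the strongest peak was at SRSF8, an SR gene that arose from a processed copy of SRSF2. It scored 17.4 in replicate 1 (rank 402, percentile 96.7) and 36.1 in replicate 2 (rank 339, percentile 98.7), on chr11:95068646-95068856 and chr11:95068638-95068894. The deposited annotation places it in exon 2 of a non-coding transcript, 1874 and 1889 bp from the assigned TSS. By the reference annotation the centre was 693 and 708 bp from the nearest start and inside an exon of SRSF8. It was therefore a gene-body peak at a short gene, not a promoter peak.

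SRSF1, the SR protein best known as a splicing oncoprotein, was the only SR gene with a promoter peak in both replicates. The peak scored 12.8 in replicate 1 (rank 931, percentile 92.4) and 16.2 in replicate 2 (rank 2755, percentile 89.8). Its centres were 1 bp upstream and 13 bp downstream of the TSS, on chr17:58007242-58007452 in replicate 1. With an HNRNPM site, it was among the 2 pairs whose percentile was lower in replicate 2. A replicate 2 peak 11349 bp upstream of SRSF1 (percentile 43.5) had no partner.

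The other shared SR sites were distal. SRSF3, a small SR protein, had a site 14527 bp upstream at percentile 45.8 in replicate 1 and 90.7 in replicate 2. SRSF5, an SR protein that regulates many alternative exons, had a site 25981 bp upstream at percentiles 38.9 and 87.6, and a site 11089 bp upstream at percentiles 64.0 and 68.0. The latter is the SRSF5 site shown with TGTTTAC. The reference annotation extends SRSF5 farther upstream, so both sites fall inside the gene there, and the former lies 14206 bp downstream of the nearest start. The SRSF10 site, for an SR protein that turns into a splicing repressor when dephosphorylated, lay 38615 bp upstream at percentiles 64.0 and 85.7. The SRSF7 site lay 30472 bp from its TSS within intron 4 of GALM, at percentiles 54.9 and 71.7. All these sites had the higher percentile in the longer list, but by absolute rank the SRSF7 site and the SRSF5 site with TGTTTAC stood lower there.

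At 4 SR genes a promoter peak was called in replicate 2 alone. These were SRSF7 (percentile 84.6), SRSF2 (76.6), SRSF5 (68.9) and SRSF6 (58.3). SRSF3 and SRSF9 had promoter peaks in replicate 1 alone, at percentiles 17.0 and 7.5, near the bottom of the list. The SRSF7 start is shared with GEMIN6 and the SRSF2 start with MFSD11 and MIR636, and a start of DYNLL1 lies within 1000 bp of the SRSF9 peak. Another replicate 1 peak, assigned to NRAV and without a partner, lay 51 bp upstream of the SRSF9 start (percentile 17.0). SRSF5 had the most peaks of any gene of the group, 5 in replicate 2. SRSF4, SRSF11 and SRSF12 were assigned none, although a replicate 2 peak assigned to LRRC40 lay 37 bp upstream of the SRSF11 start (percentile 63.0).

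Promoters of 4 hnRNP genes were bound in both replicates. HNRNPUL1, an hnRNP U-like protein, had peaks of score 7.55 (percentile 69.8) and 14.0 (percentile 85.7), centred 285 and 336 bp upstream of the TSS. HNRNPH1, which binds G-rich RNA, had scores of 7.36 (percentile 68.0) and 10.6 (percentile 73.9), 25 and 104 bp upstream. HNRNPA3, an A/B-type hnRNP, had scores of 7.36 (percentile 68.0) and 9.67 (percentile 68.9), 262 and 150 bp upstream. HNRNPD, also called AUF1, which binds AU-rich elements and governs mRNA decay, had scores of 5.66 (percentile 45.8) and 12.0 (percentile 80.2), 302 and 287 bp upstream. The first 3 sites stood in the upper part of both lists, and the HNRNPD peak did so in replicate 2 alone. The HNRNPD start region is shared with the divergent transcript HNRNPD-DT. That of HNRNPA3 also holds the starts of MIR4444-1 and of a transcript on the other strand, and the deposited class of its peak refers to a non-coding transcript.

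HNRNPU, which encodes the scaffold attachment factor that binds chromatin and RNA, had a site annotated to intron 1, 1352 and 1377 bp from the assigned TSS. Its percentiles were 34.8 in replicate 1 and 43.5 in replicate 2. By the reference annotation the centre was 67 and 42 bp upstream of a start, and this is the stretch shown above with the adjacent CRE and ETS-type heptamers. The class of this peak thus depends on the annotation used.

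By distance to the assigned TSS, HNRNPM and HNRNPL had the strongest distal hnRNP sites. HNRNPM, a regulator of splicing in epithelial and mesenchymal states, had a site 10328 bp upstream, within an intron of MARCHF2, with a score of 14.0 in replicate 1 (rank 742, percentile 93.9) and 18.4 in replicate 2 (rank 1955, percentile 92.7). Its second shared site lay 15078 bp downstream of the TSS in intron 3, with 8.68 (percentile 78.1) and 13.7 (percentile 85.0), and holds the TGTTTAC shown above. By the reference annotation the centres of this second site were 1972 and 1993 bp upstream of another HNRNPM start. The peaks within MARCHF2 were chr19:8434395-8434605 and chr19:8434346-8434602. The HNRNPM promoter was called in replicate 1 alone, 5 bp from the TSS, with a score of 7.92 (percentile 72.8). Of the 500 replicate 1 peaks nearest in rank, 89.6% had a partner in replicate 2, so a peak of this strength without a partner was uncommon, and the nearest replicate 2 peak was 7656 bp away.

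HNRNPL, which binds CA-rich RNA, had a site 10448 bp upstream with a score of 9.81 in replicate 1 (rank 1915, percentile 84.2) and 16.5 in replicate 2 (rank 2632, percentile 90.3). The peaks were chr19:38862682-38862892 and chr19:38862589-38862845. A weaker shared site lay 12646 bp upstream, at percentiles 42.6 and 46.9. The remaining distal pairs were at HNRNPA3, 47924 bp upstream (percentiles 59.7 and 83.0), and at HNRNPD, 101865 bp downstream (3.9 and 54.4) and 21238 bp upstream (1.6 and 26.7). The pseudogene HNRNPA1P10 had a pair 9649 bp from its start, at percentiles 30.8 and 34.8.

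Promoter peaks in replicate 2 alone were assigned to 6 hnRNP names. They were HNRNPA1L2 and HNRNPUL2-BSCL2 (percentiles 76.6 and 75.3), HNRNPF (60.7), HNRNPH3 (58.3), HNRNPC (50) and HNRNPR (30.9). By the reference annotation the HNRNPA1L2 peak was 24944 bp from the nearest start of that gene, beside the pseudogene MRPS31P4. HNRNPUL2-BSCL2 is a read-through of HNRNPUL2 into BSCL2, and its start lies beside that of TTC9C. HNRNPF, a close relative of HNRNPH1, also had an intron peak 608 bp from the TSS (percentile 74.6) with TGTTTAC. HNRNPLL, a regulator of splicing in lymphocytes, had an intron peak at percentile 80.2, and HNRNPK, the poly(C)-binding hnRNP, had peaks within introns 5992 and 11766 bp upstream of its TSS (46.9 and 2.7). HNRNPA1, among the most abundant hnRNPs, was assigned a replicate 2 peak at 5920 bp (percentile 30.9), which the reference annotation places 227 bp upstream of another HNRNPA1 start. The same annotation places its centre in untranslated sequence of exon 11 of the canonical HNRNPA1 transcript, and the peak held TGTTTAC. None of these peaks overlapped a replicate 1 peak.

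The other 13 replicate 2 peaks without a partner were outside promoters, at percentiles from 2.7 to 67.1. The highest was in intron 1 of HNRNPL, 413 bp from the TSS, and the next at 64.1 was 3236 bp upstream of HNRNPH3, the gene of a G-rich RNA binder related to HNRNPH1. The others were at HNRNPA3, HNRNPD, HNRNPM, HNRNPKP3, SRSF3, SRSF5, SRSF6 and SRSF10, all below percentile 50. In replicate 1 the last peak without a partner was 50846 bp upstream of HNRNPA3 (percentile 45.8).

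No peak in either list was assigned to HNRNPA0, HNRNPA1L3, HNRNPA2B1, HNRNPAB, HNRNPCL1, HNRNPCL2, HNRNPCL3, HNRNPCL4, HNRNPDL, HNRNPH2 or HNRNPUL2. Assignment to the nearest TSS hid some of them. A replicate 2 promoter peak assigned to CBX3 lay 96 bp upstream of the HNRNPA2B1 start, with a score of 13.7 (percentile 85.0), and HNRNPA2B1 and CBX3 are transcribed away from each other. A weaker replicate 2 peak assigned to GLA lay 153 bp upstream of the HNRNPH2 start (percentile 11.5). Neither had a partner in replicate 1. The replicate 2 peak assigned to HNRNPUL2-BSCL2 (percentile 75.3) also lay in exon 1 of HNRNPUL2, and these names count as separate genes among the 48. When peaks were instead taken by distance, within 5000 bp of any annotated start of the gene and whatever gene the list named, 13 of 48 genes had a peak in both replicates (27.1%, 16.6% to 41.0%), with 23.1% of all protein-coding genes as the background. This count does not require that the peaks overlap, and it includes SF3A2, whose peaks were at separate places.

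By position, 12 of 28 splicing-gene peaks in replicate 1 were promoter peaks (42.9%, 26.5% to 60.9%), compared with 21.7% of all peaks. In replicate 2 they were 20 of 55 (36.4%, 24.9% to 49.6%), compared with 18% of all peaks. Both intervals lay above the share of all peaks, and no test was made. The farthest promoter peak was 302 bp from its TSS in replicate 1 and 336 bp in replicate 2. Of the peaks outside promoters, 13 of 16 and 24 of 35 were more than 10000 bp from the assigned TSS. Introns held 4 peaks in replicate 1 (14.3%, 5.7% to 31.5%) and 12 in replicate 2 (21.8%, 12.9% to 34.4%), compared with 39.0% and 40.6% of all peaks, which lay above both intervals. Intergenic sequence held 11 (39.3%) and 20 (36.4%), compared with 34.1% and 36.5%.

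**Figure D2:**
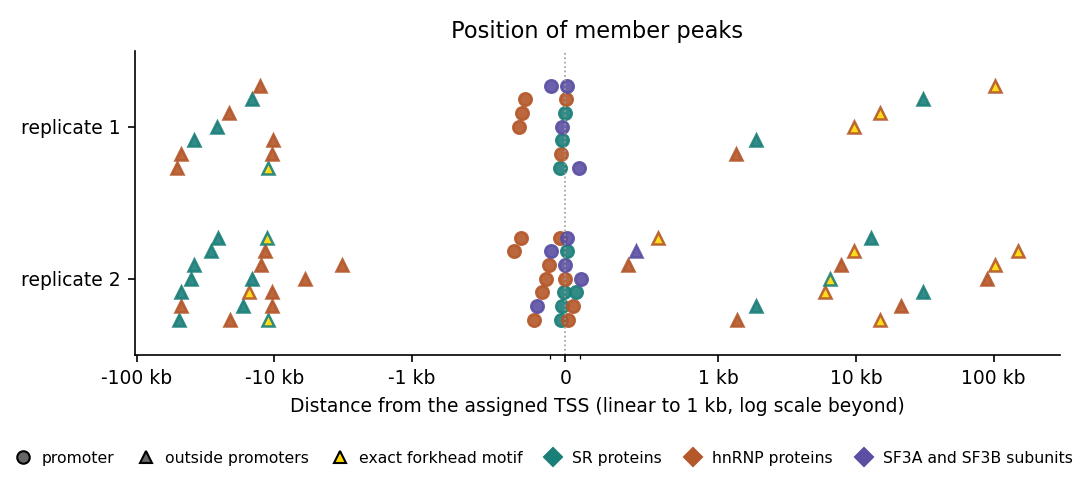
Distance of each splicing-gene peak from its assigned TSS (x axis, linear to 1 kb and logarithmic beyond, negative upstream), by replicate and gene group, with vertical offsets for legibility only. Promoter peaks (circles) lie within 336 bp of the TSS, and every peak with the exact forkhead motif (gold) is a triangle outside promoters.

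Splicing-gene peaks had a median percentile of 64.0 in replicate 1 and 64.1 in replicate 2, compared with 49.1 and 50 for all peaks. Promoter peaks of the group had medians of 68.0 and 74.6, and all promoter peaks had 59.7 and 64.1. Outside promoters the medians were 50.4 and 43.5, compared with 45.8 and 46.9. The peaks of the group thus sat above the middle of the lists mainly at promoters. The median focus ratio, the fraction of tags on the expected side of the peak centre, was 0.768 and 0.744 for splicing-gene peaks and 0.758 and 0.755 for all peaks.

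**Figure D3:**
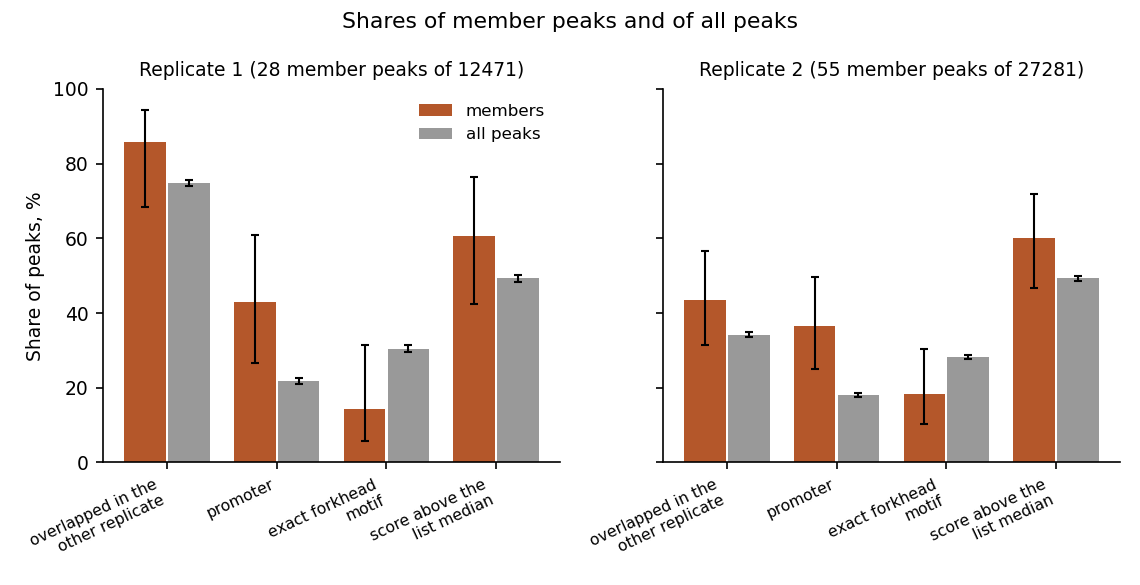
Share of peaks in percent (y axis) for splicing-gene peaks (members) and all peaks in each replicate, with Wilson 95% intervals as bars. The promoter share is 42.9% against 21.7% in replicate 1 and 36.4% against 18% in replicate 2, and the exact forkhead motif share is 14.3% against 30.5% and 18.2% against 28.2%.

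Most replicate 1 sites were found again. Of 28 replicate 1 peaks, 24 shared 1 bp or more with a peak of replicate 2 (85.7%, 68.5% to 94.3%), compared with 74.9% of all replicate 1 peaks. Of 55 replicate 2 peaks, 24 overlapped (43.6%, 31.4% to 56.7%), compared with 34.2%. Both backgrounds were inside the intervals. At promoters, 9 of 12 replicate 1 peaks overlapped (75%; all promoter peaks 79.1%), as did 9 of 20 in replicate 2 (45.0%; all promoter peaks 43.9%). Outside promoters the counts were 15 of 16 (93.8%, background 73.7%) and 15 of 35 (42.9%, background 32.1%).

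All 24 pairs were assigned to the same gene in both lists, and their centres lay a median of 23 bp apart (range 1 to 143 bp). The percentile was higher in replicate 2 for 22 of 24 pairs, as it was for 89.4% of all 9343 pairs, in lists of unequal length. By absolute rank, 7 of 24 pairs stood nearer the top in replicate 2, compared with 31.9% of all pairs. Over the pairs, the percentiles of the replicates had a Spearman rho of 0.74 (n = 24), compared with 0.85 over all pairs, as a description across sites within the same libraries. Of the pairs, 7 were above percentile 75 in both lists: SF3B6, SRSF8, SRSF1, SF3A3, HNRNPL and both HNRNPM sites. This was 29.2% of the pairs (14.9% to 49.2%), compared with 31.3% of all pairs. In replicate 2 the 31 peaks without a partner had a median percentile of 43.5, and the 24 with a partner had 81.6.

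**Figure D4:**
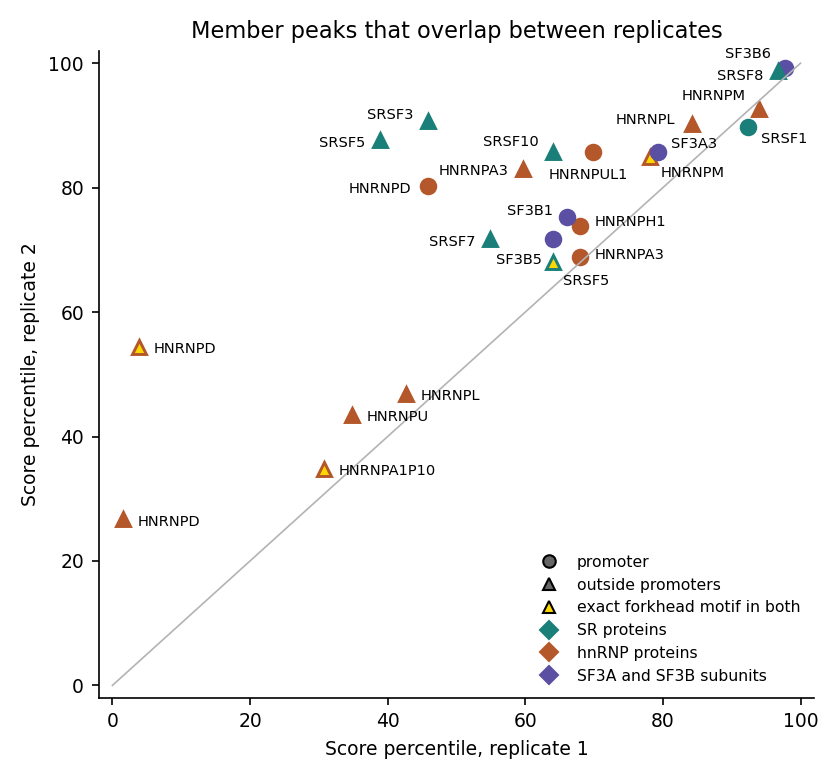
Score percentile in replicate 1 (x axis) and replicate 2 (y axis) of the 24 overlapping pairs, with promoter pairs as circles, other pairs as triangles, gold for the exact forkhead motif and a line of equal percentile. SF3B6 and SRSF8 lie at the upper right, and 22 of 24 pairs lie above the line, as do 89.4% of all pairs.

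The exact heptamer TGTTTAC, on either strand within 100 bp of the peak centre, was in 4 of 28 replicate 1 peaks (14.3%, 5.7% to 31.5%) and 10 of 55 replicate 2 peaks (18.2%, 10.2% to 30.3%). Among all peaks it was in 30.5% and 28.2%. The background was inside both intervals, but this reading depends on the choice of genes and on the score limit. With the 3 protein lists alone, which leave out the pseudogenes and hold 22 of the 27 hnRNP genes, the shares were 11.1% (3.85% to 28.1%) and 15.4% (8.01% to 27.5%). The background lay above both of these intervals. Above the median score the shares were 11.8% (3.29% to 34.3%) and 12.1% (4.82% to 27.3%). Among all such peaks they were 35.8% and 30.3%, again above both intervals. Promoter peaks made up 52.9% and 54.5% of the group's higher-scoring peaks, compared with 25.8% and 23.8% of all such peaks. The heptamer comparison at this limit was not split by promoter class. With full lists, all heptamer sites of the group were outside promoters. The heptamer was there in 4 of 16 (25%) and 10 of 35 (28.6%) of the group's peaks, compared with 35.0% and 32.0% of all peaks outside promoters. None of the 12 and 20 promoter peaks held it. With 3 counts taken as the most that a count of 0 allows, shares of up to 25% and 15.0% were possible, and the upper ends of the Wilson intervals were 24.2% and 16.1%. Among all promoter peaks the heptamer was in 14.4% and 10.9%, so a lower share at these promoters was not detectable with so few peaks.

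A looser core, which accepts the string ATAAACA or the string ATAAATA, and equally the string GTAAACA or the string GTAAATA, on either strand, was in 25% of splicing-gene peaks in replicate 1 and 32.7% in replicate 2, compared with 50.5% and 49.0% of all peaks. Of these strings, GTAAACA is the reverse complement of TGTTTAC, so peaks with the heptamer are counted again. Both intervals (12.7% to 43.4% and 21.8% to 45.9%) lay below the share of all peaks. Outside promoters the core was in 37.5% (18.5% to 61.4%) and 51.4% (35.6% to 67.0%) of the group's peaks, compared with 58.0% and 55.5% of all peaks there, so within this class the background was inside both intervals. At promoters the core was in 1 of 12 and 0 of 20 peaks, with 23.1% and 19.2% as the background. There the background lay inside the interval of replicate 1 (1.49% to 35.4%) and above that of replicate 2 (up to 16.1%). A match describes letters in a window and no match says only that these letters are absent there.

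Other heptamers and pentamers were counted after values had been seen. CCGGAAG was in 2 of 12 promoter peaks in replicate 1 (16.7%) and 4 of 20 in replicate 2 (20%), and in 18.0% and 18.4% of all promoter peaks. The pentamer CCAAT was in 25% and 27.3% of splicing-gene peaks and in 25% and 24.4% of all peaks. The AP-1 heptamers TGACTCA and TGAGTCA were in 1 of 28 and 3 of 55, with 16.4% and 16.6% as the background. TGACGTCA was in 1 peak of each list, the HNRNPU site, and in 0.81% and 0.803% of all peaks. The AP-1 background lay inside the interval of replicate 1 (0.633% to 17.7%) and above that of replicate 2 (1.87% to 14.9%). At promoters AP-1 letters were in 3.88% and 3.36% of all peaks and in none of the group's, and outside promoters they were in 1 of 16 (1.11% to 28.3%) and 3 of 35 (2.96% to 22.4%) peaks of the group, with the background of 19.9% and 19.5% of all peaks there inside both intervals.

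The SR and hnRNP proteins work with many other splicing genes, which were counted from lists of 143 protein-coding genes. Of these, 51 had a peak in both replicates (35.7%) and 31 a promoter peak in both (21.7%), set against 28% and 9.08% of all protein-coding genes. The corresponding shares of the 48 SR, hnRNP and SF3 genes were 35.4% and 18.8%.

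SR protein kinases, which phosphorylate SR proteins and so control their location and activity, had a peak in both replicates at 5 of 9 genes, of which 4 had peaks that overlapped. The strongest was at the CLK4 promoter, at percentiles 87.5 and 96.1, and it held TGTTTAC. By the mean of both percentiles the SRPK2 promoter peak came next, at 54.9 and 85.7. SR-related proteins had 9 of 21, led by TRA2A, a splicing activator, with a site 15024 bp upstream (83.4 and 95.2), and by the RBM39 promoter (76.9 and 93.7). Among hnRNP family proteins with other names it was 7 of 17, and PTBP3, a paralog of the polypyrimidine tract-binding protein, led with 92 and 96.2.

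Tissue-type splicing regulators had 8 of 28, of which 6 had overlapping peaks, among them MBNL1 (90.1 and 95.2), which steers developmental exon choice. Genes for recognition of the end of the intron had 5 of 12, led by the promoter of DDX46, the helicase that remodels the U2 snRNP (98.1 and 97.1), and by RBM17 (75.6 and 90.0). Genes of the U1 snRNP and the Sm core had 4 of 11 and the minor spliceosome 3 of 8. The tri-snRNP and Prp19 list had 10 of 37, including SYF2 (score 41.7 at rank 26 in replicate 1, and 79.6 at rank 34 in replicate 2) and the helicase DHX8 (40.2 at rank 32, and 69.5 at rank 54). SYF2, DHX8 and the SART1 promoter (37.2 at rank 45, and 67.4 at rank 62) ranked above every peak of the SR, hnRNP and SF3 genes in both replicates.

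**Figure D5:**
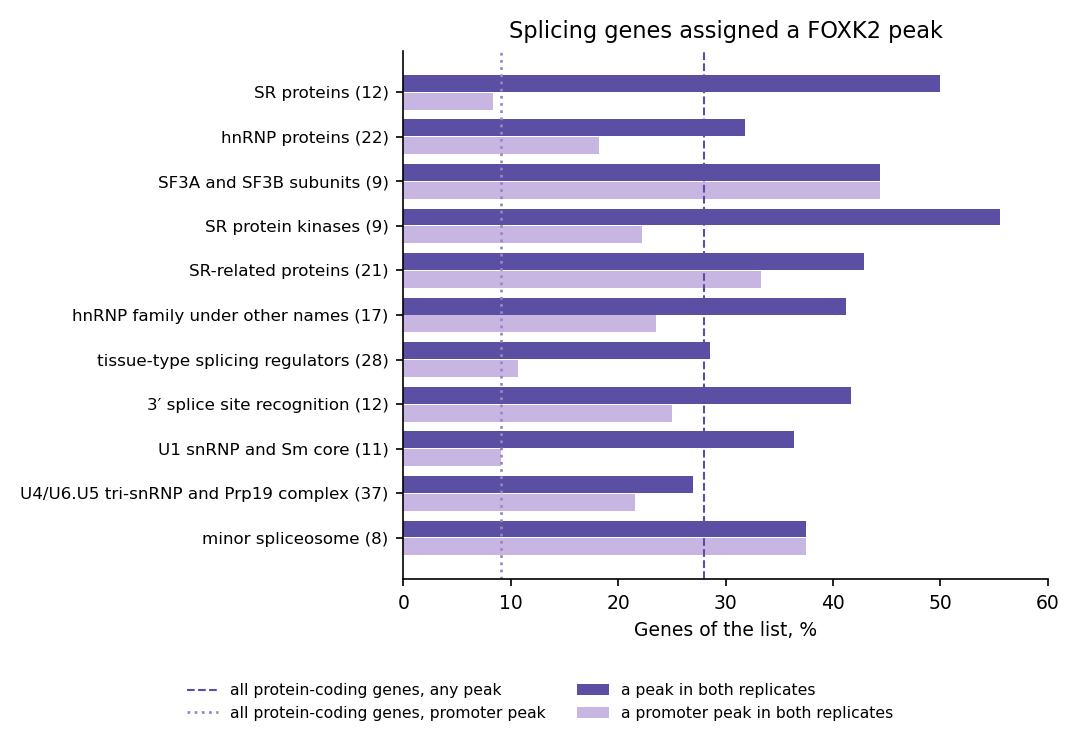
Share of genes in percent (x axis) with an assigned FOXK2 peak in both replicates (dark bars) and with a promoter peak in both (light bars) for each splicing list (y axis, number of genes in brackets, the hnRNP list holding 22 of the 27 genes of the rule). Vertical lines mark all protein-coding genes, 28% for any peak and 9.08% for promoter peaks.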

How the data were processed

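ChIP-seq of FOXK2 in OVCAR5 was analysed from the 2 peak lists that the authors deposited, each belonging to 1 replicate. Per the paper's methods and the submitters' processing notes, the authors mapped reads to hg38 with Bowtie2 2.2.6 and called and annotated peaks with HOMER 4.10; the paper names an FDR limit for its FOXK2 peaks, and whether it was applied to the deposited lists is not given in the sources used here. The deposited peak score is on a library-scaled tag scale, and the deposited focus ratio is a fraction. Peaks of replicate 1 were 210 bp long and those of replicate 2 256 bp, and they were used with no further threshold. The input libraries were not analysed here.

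Peaks were selected by gene name. The members and the splicing lists were chosen with earlier results of these data known. Genes were described in full where an overlapping pair was above percentile 75 in both lists or was a promoter pair. Other splicing lists were summarised by counts and their strongest pairs. Overlap required 1 bp, motifs were searched within 100 bp of the centre on both strands, and shares carry Wilson 95% intervals. With a single condition no hypothesis test was made. GENCODE release 44 on hg38 gave gene starts and exons. The ETS-type, CCAAT, CRE and AP-1 motifs, the comparison with 500 peaks of like rank, the values over all pairs and the score steps were chosen after seeing the data. Overlap and motif steps made 0 errors on simulated data, over 2 sets of 5000 peaks and 1000 windows each. The simulated windows held only C and G around planted motifs, and the simulated peaks were widely spaced. This checked that the code runs correctly in a simple setting and gives no error rate for the real lists. Alternatives were the higher-scoring peaks, an equal number of peaks per list, a limit of 10000 bp to the TSS, named protein lists only, stricter overlap, other motif windows and core, other promoters, and leaving out each replicate. Python 3.11.15 was used with numpy 2.4.6, pandas 2.3.3, statsmodels 0.14.6, pysam 0.24.0, matplotlib 3.10.9 and samtools 1.23.1.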

Additional observations from a re-analysis of the deposited data

How the results depend on the processing

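Over 11 results and 59 alternative values, 44 stayed close to the reported value (counts within 1.5-fold, shares and medians inside their interval) and 15 moved. No paired analysis between conditions was possible because the data hold a single condition, and ChIP was not paired with input because the inputs were not analysed. With peaks above their list's median score, 17 and 33 splicing-gene peaks were left in replicates 1 and 2. In replicate 2 the promoter share was then 54.5%, compared with 23.8% of all such peaks. The median percentile was 76.6, a median that this limit raises by construction. With lists of equal length, 71.4% of replicate 1 peaks were overlapped, and replicate 2 kept 33 peaks, 60.6% of them overlapped. Of all peaks under this limit, 59.9% were overlapped in each list. The promoter share of the group in replicate 2 was 54.5%, compared with 24.2% of all replicate 2 peaks under this limit. The median percentile of the group there was 76.6, again raised by dropping weak peaks. Within 10000 bp of the TSS, 15 and 31 peaks were left, with promoter shares of 80.0% and 64.5%, which the limit itself raises. The TGTTTAC share was 11.8% (3.29% to 34.3%) and 12.1% (4.82% to 27.3%) above the median score, compared with 35.8% and 30.3% of all such peaks, and 12.1% in replicate 2 at equal length, compared with 30.7%. The background thus lay above these intervals, unlike with full lists. These comparisons were not split by promoter class, although the group held a larger share of promoter peaks than all peaks did. Whether the heptamer shares differ within a class at these limits was not tested. The looser forkhead core was in 32.7% of replicate 2 peaks. Gene names in both lists numbered 18, pseudogene included, and 9 with promoter peaks only. When a replicate was left out, the count became the names in the remaining list, 19 for replicate 1 and 32 for replicate 2. Single weak peaks rest on few tags, and 2 replicates set the precision. The lists hold no input signal.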
